A study of Homo sapiens with 4 samples.

Results

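The DNA methyltransferases, the TET dioxygenases and the core subunits EZH1, EZH2, SUZ12 and EED of Polycomb repressive complex 2 (PRC2) were followed in MV4-11 cells upon CEBPG knockdown. The members were taken by gene symbol, as DNMT1, DNMT3A, DNMT3B, TET1, TET2, TET3, EZH1, EZH2, SUZ12 and EED, and all 10 were found among the 16490 genes of the table, on 23 of its 28780 RefSeq transcript rows. MV4-11 is a human acute myeloid leukemia (AML) cell line that carries a fusion of KMT2A. The cells were infected with a pLKO.1-puro lentivirus and selected with puromycin, and RNA-seq was done on 2 libraries of cells with the control hairpin (sh-NC, labelled as CEBPG presence) and on 2 libraries of cells with the third CEBPG hairpin (sh-CEBPG#3, labelled as CEBPG knockdown). All 4 libraries thus come from infected and selected cells, only 1 CEBPG hairpin was sequenced, and the sources used here do not say if replicate libraries are separate infections, so the p-values measure the spread between these libraries, which may be technical.

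DNA methylation at CpG sites is written by the DNMT enzymes and undone through the TET enzymes. DNMT3A and DNMT3B set methylation on unmethylated DNA, and DNMT1 copies the pattern onto the new strand after replication, guided there by UHRF1. TET1, TET2 and TET3 oxidize 5-methylcytosine with 2-oxoglutarate, the product of the normal IDH enzymes. PRC2 methylates lysine 27 of histone H3 (H3K27) and keeps developmental genes silent, with EZH2 or EZH1 as its catalytic subunit and EED and SUZ12 as the subunits that the enzyme needs for activity. DNMT3A, TET2 and EZH2 are recurrently mutated in myeloid neoplasms, and TET1 was named after its fusion with KMT2A in leukemia.

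The values are FPKM (fragments counted per kilobase of transcript and per unit of sequencing depth), with 1 value for each RefSeq row and library, and the rows of a gene were summed. FPKM is scaled to transcript length, so levels can be set side by side between genes. The library totals were 364353 to 389766 FPKM. The depth of the libraries is unknown, and no interval of counting error can be given. Differences were tested with limma on log2(FPKM + 1) over the 12142 genes whose mean level reached 0.5 FPKM, and a gene was called at a Benjamini-Hochberg adjusted p under 0.05. CEBPG itself had 30.4 and 33.6 FPKM in sh-NC cells and 19.2 and 17.1 FPKM in sh-CEBPG#3 cells, so that 56.8% of the control level remained. Of the 8 myeloid leukemia markers listed (among them CD33, MPO, SPI1 and LYZ), all had a mean of at least 0.5 FPKM, and their summed level was 889 and 967 FPKM in sh-NC cells and 3545 and 3374 FPKM in sh-CEBPG#3 cells. None of the 4 T cell and 4 erythroid markers was listed with a value, the 3 of 4 B cell markers with a value summed to 2.35 to 3.24 FPKM (1 lower in limma, MS4A1 not listed with a value), and the 2 of 5 epithelial or packaging cell markers with a value to 12.1 to 16.0 FPKM (1 higher in limma). Of the 8 myeloid markers 5 were higher and 2 lower in limma, with LYZ the most abundant, so the list did not move one way, and its part in the changes of the members was not tested.

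Of the members, DNMT1 fell and DNMT3B rose upon CEBPG knockdown, and the other 7 that could be tested did not pass the threshold. That is 2 of 9 members called, where 42.2% of all genes tested were called (23.8% as lower and 18.5% as higher). The median of the absolute log2 fold change was 0.11 over the 9 members and 0.23 over all genes tested, and the median log2 fold change was -0.04 for both. No member passed an unadjusted p under 0.05 together with an absolute log2 fold change above 1, which 3.41% of the genes did. The groups did not overlap for 5 of the 9 members, against 71.7% of the genes tested. In bulk RNA, fewer cells that express a gene and less RNA per cell cannot be told apart.

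**Figure D1:**
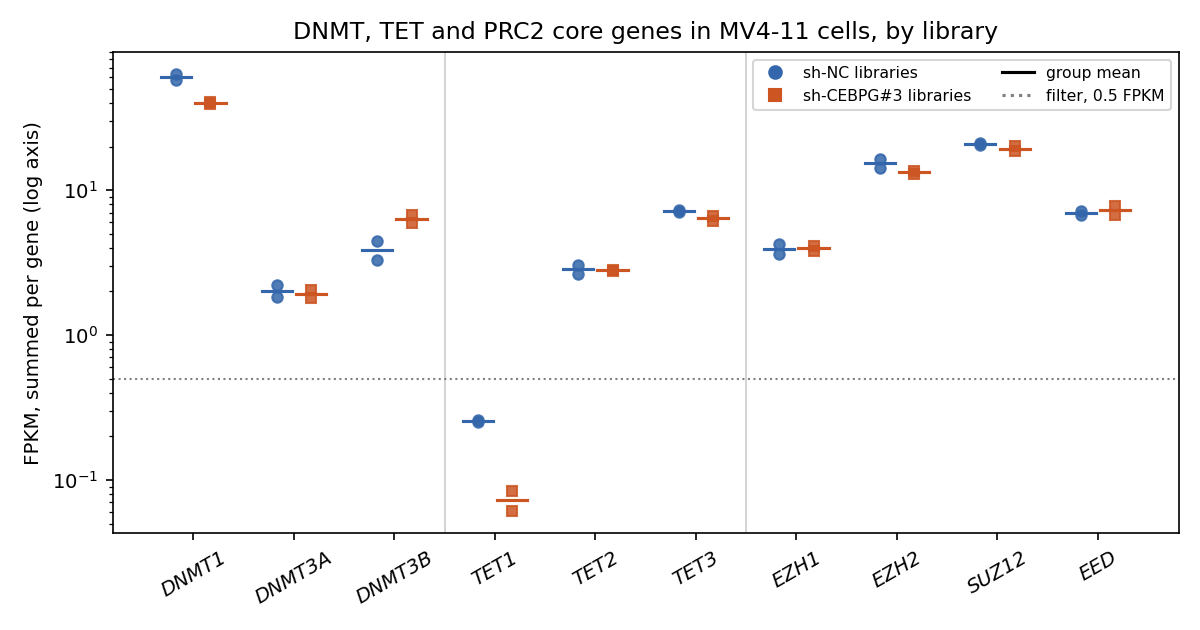
Level of each member in every library, in FPKM on a log axis, with circles for sh-NC, squares for sh-CEBPG#3 and a line for the group mean. DNMT1 is the most abundant member in all 4 libraries and TET1 is the least, and only TET1 lies under the filter of 0.5 FPKM, drawn as a dotted line.

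In sh-NC cells the levels ran from DNMT1 with a mean of 60.8 FPKM through SUZ12 with 20.9, EZH2 with 15.3, TET3 with 7.17, EED with 6.98, EZH1 with 3.95, DNMT3B with 3.86, TET2 with 2.84 and DNMT3A with 2.02 to TET1 with 0.256 FPKM. The neighbours TET3 and EED, and EZH1 and DNMT3B, overlapped between their libraries and had no order, while all other neighbours were apart. In sh-CEBPG#3 cells DNMT1, SUZ12 and EZH2 were again the upper 3 members, with means of 40.2, 19.3 and 13.3 FPKM, and TET2, DNMT3A and TET1 again the lower 3. In between, DNMT3B at 6.30 FPKM now stood above EZH1 at 3.97 FPKM with no overlap and overlapped with TET3 at 6.42 FPKM. By its mean over all libraries DNMT1 was above 91.4% of the genes tested and DNMT3A above 17.7%.

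**Figure D2:**
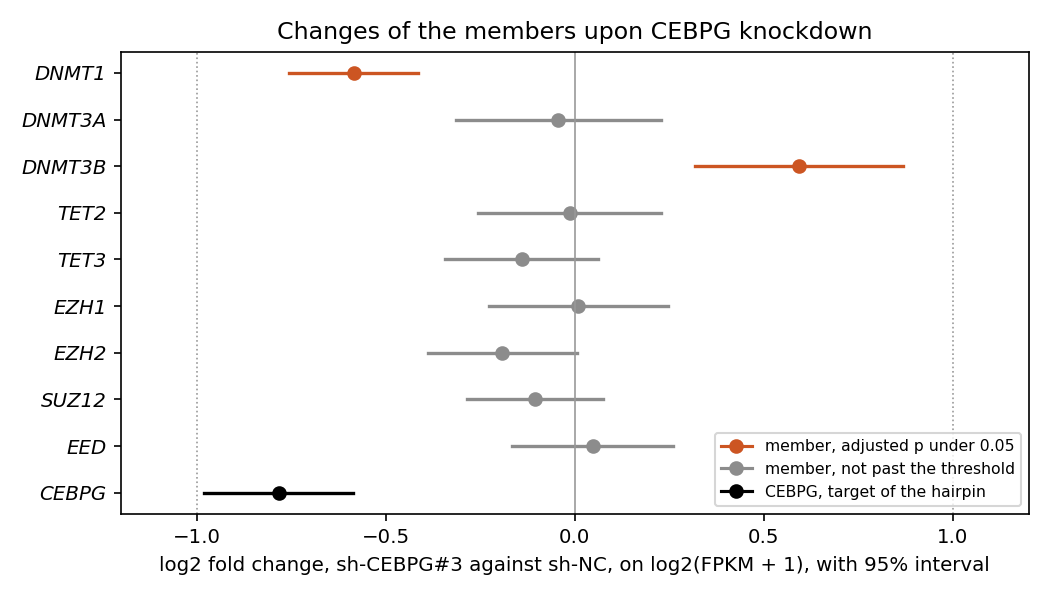
Log2 fold change of each tested member and of CEBPG, sh-CEBPG#3 against sh-NC on the log2(FPKM + 1) scale, with the 95% interval from limma as a bar, and dotted lines at an absolute log2 fold change of 1. The intervals of DNMT1 (-0.75 to -0.41) and DNMT3B (0.32 to 0.87) lie away from 0 on opposite sides, and those of the other 7 members include 0.

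DNMT1, the maintenance methyltransferase, lies on chromosome 19 from 10133346 to 10194953 (GRCh38). Its level was 57.9 and 63.6 FPKM in sh-NC cells, compared with 40.8 and 39.5 FPKM in sh-CEBPG#3 cells. Both knockdown libraries were lower than both control libraries, and 66.1% of the control level remained. On average DNMT1 stood at 60.8 ± 4.01 FPKM (SD, n = 2) in control and at 40.2 ± 0.925 FPKM (SD, n = 2) in knockdown cells. The log2 fold change of DNMT1 was -0.58 (standard error 0.08, adjusted p = 0.000231 from limma). The difference exceeded the spread within either group. With its most abundant row in place of the sum, DNMT1 did not pass (-0.66, adjusted p = 0.0712 from limma). DNMT1 shares 83 exon bases with its neighbour S1PR2 on the same strand, where reads could be counted for either gene, and S1PR2 reached at most 0.941 FPKM in any library.

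DNMT3B, which sets methylation in early development and is low in most adult tissues, lies on chromosome 20 from 32762385 to 32809356. It had 3.31 and 4.42 FPKM in sh-NC cells and 6.70 and 5.90 FPKM in sh-CEBPG#3 cells. The knockdown libraries were both higher, although the control libraries differed 1.34-fold from each other. On average DNMT3B stood at 3.86 ± 0.789 FPKM (SD, n = 2) in control and at 6.30 ± 0.563 FPKM (SD, n = 2) in knockdown cells. The log2 fold change of DNMT3B was 0.59 (standard error 0.12, adjusted p = 0.00369 from limma), which is 1.51-fold on the log2(FPKM + 1) scale. With its most abundant row in place of the sum, DNMT3B did not pass (0.88, adjusted p = 0.217 from limma).

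DNMT3A, the other enzyme that sets new methylation, lies on chromosome 2 from 25227874 to 25342590. It had 1.82 and 2.22 FPKM in sh-NC cells and 2.05 and 1.81 FPKM in sh-CEBPG#3 cells. The groups overlapped, and the log2 fold change was -0.04 with a 95% interval from -0.32 to 0.23 (adjusted p = 0.802 from limma). DNMT1 made up 91.9% and 90.5% of the summed FPKM of the 3 DNMT genes in sh-NC cells and 82.4% and 83.7% in sh-CEBPG#3 cells. The share of DNMT3B was 5.24% and 6.30% in control libraries and 13.5% and 12.5% in knockdown libraries. The ratio of DNMT3A to DNMT3B was 0.552 and 0.503 in sh-NC cells and 0.306 and 0.307 in sh-CEBPG#3 cells, and that of DNMT1 to DNMT3B, added after the values were seen, was 17.5 and 14.4 against 6.09 and 6.70. Neither ratio depends on the scaling of the libraries, and in both the groups did not overlap. For DNMT1 to DNMT3B this was fixed beforehand, as DNMT1 was lower and DNMT3B higher in both knockdown libraries, so it adds no support. An exact two-sided permutation test over 2 against 2 libraries gave p = 0.333 for both ratios, the smallest p it can give.

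The TET genes were expressed at lower levels than DNMT1 and showed no call at the filter used. TET3 (chromosome 2, 73983631 to 74135498), the most abundant of them, had 7.05 and 7.29 FPKM in sh-NC cells and 6.68 and 6.15 FPKM in sh-CEBPG#3 cells. The knockdown libraries lay just below the control libraries, and the log2 fold change of -0.14 did not pass the threshold (95% interval -0.34 to 0.06, adjusted p = 0.242 from limma). TET2 (chromosome 4, 105145875 to 105279803) had 3.04 and 2.64 FPKM in control and 2.82 and 2.77 FPKM in knockdown libraries. These groups overlapped, with a log2 fold change of -0.01 and a 95% interval from -0.26 to 0.23, so a change of TET2 beyond that interval was not seen. TET3 made up 68.2% to 71.6% of the summed FPKM of the 3 TET genes over all libraries. The ratio of TET2 to TET3 was 0.431 and 0.362 against 0.422 and 0.451, with overlap.

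TET1 (chromosome 10, 68560337 to 68694487) had 0.251 and 0.260 FPKM in sh-NC cells and 0.0844 and 0.0606 FPKM in sh-CEBPG#3 cells. Both knockdown values were lower, and 28.3% of the control level remained, but all 4 values lay under the filter, so TET1 was not tested with the others. Without the filter its log2 fold change was -0.23 on the log2(FPKM + 1) scale (adjusted p = 0.0223 from limma over 16490 genes). With no filter and a pseudocount of 0.01, added after the values were seen, it was -1.70 and did not pass (adjusted p = 0.0545 from limma). How many reads stand behind these values is unknown.

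Of the 4 PRC2 members, none passed the threshold in limma, against 42.2% of all genes, and none had an unadjusted p under 0.05, against 50.6% of all genes. The subunits RBBP4 and RBBP7 are given below with the partners, and both were lower (adjusted p = 0.00472 and 0.0143 from limma). EZH2 (chromosome 7, 148807383 to 148884291), the main catalytic subunit of dividing cells, had 14.3 and 16.3 FPKM in sh-NC cells and 13.5 and 13.0 FPKM in sh-CEBPG#3 cells. Both knockdown libraries were lower, but the nearest libraries of the groups, at 14.3 and 13.5 FPKM, lay closer together than the control libraries did. On average EZH2 stood at 15.3 ± 1.41 FPKM (SD, n = 2) and 13.3 ± 0.324 FPKM (SD, n = 2), and the log2 fold change was -0.19 (95% interval -0.39 to 0.01, adjusted p = 0.107 from limma). This value depended on the scaling, on the rows used and on the control libraries. With equal FPKM totals it was -0.22 and passed the threshold (adjusted p = 0.0227 from limma). With the most abundant row in place of the sum it was -0.11 and did not pass (adjusted p = 0.870 from limma). Without sh-NC replicate 1 it was -0.28, and without sh-NC replicate 2 it was -0.10.

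EZH1 (chromosome 17, 42700275 to 42745040), the paralog that prevails in resting cells, had 3.64 and 4.25 FPKM in control and 4.12 and 3.81 FPKM in knockdown libraries. The groups overlapped, and the log2 fold change of 0.01 had a 95% interval from -0.23 to 0.25. The ratio of EZH2 to EZH1 was 3.94 and 3.84 in sh-NC cells and 3.27 and 3.42 in sh-CEBPG#3 cells. These did not overlap, and the exact permutation p of 0.333 is the smallest that the design allows.

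SUZ12 (chromosome 17, 31937007 to 32001038) had 20.5 and 21.3 FPKM in sh-NC cells and 20.2 and 18.5 FPKM in sh-CEBPG#3 cells, and its log2 fold change of -0.11 did not pass (95% interval -0.29 to 0.07, adjusted p = 0.316 from limma). Its pseudogene SUZ12P1, which can share reads with it, was listed at 17.0 and 17.8 FPKM in control and 17.6 and 16.9 FPKM in knockdown libraries. EED (chromosome 11, 86244753 to 86287615), which reads methylated H3K27, had 7.20 and 6.76 FPKM in control and 7.73 and 6.79 FPKM in knockdown libraries. These overlapped, with a log2 fold change of 0.05 and a 95% interval from -0.17 to 0.26. The summed level of the 4 PRC2 genes was 45.6 and 48.6 FPKM in control and 45.5 and 42.2 FPKM in knockdown libraries, just without overlap. The ratio of EZH2 to SUZ12 overlapped between the groups, at 0.699 and 0.766 against 0.669 and 0.703. That of EZH2 to EED was 1.99 and 2.41 against 1.75 and 1.92, with no overlap and p = 0.333 in the exact permutation test. Its log2 difference of -0.26 became -0.40 without sh-NC replicate 1 and -0.12 without sh-NC replicate 2.

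The RefSeq rows of one gene differed more between libraries of a group than their sum did. DNMT1 was listed as NM_001379 and NM_001130823, whose proteins differ by an in-frame exon. NM_001379 had 41.6 and 32.3 FPKM in control and 23.9 and 21.7 FPKM in knockdown libraries, while NM_001130823 had 16.3 and 31.3 FPKM against 16.9 and 17.8 FPKM. Only the first of these was lower in both knockdown libraries than in both control libraries, and its log2 fold change was -0.66 (unadjusted p = 0.00924, adjusted p = 0.0712 from limma over 18624 rows). Of the 15 member rows that reached the filter, none had an adjusted p under 0.05 in limma, where 8.24% of all rows tested did, and 1 had an unadjusted p under 0.05, where 28.5% of all rows did. The groups did not overlap for 6 of these 15 rows, against 59.5% of all rows tested.

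**Figure D3:**
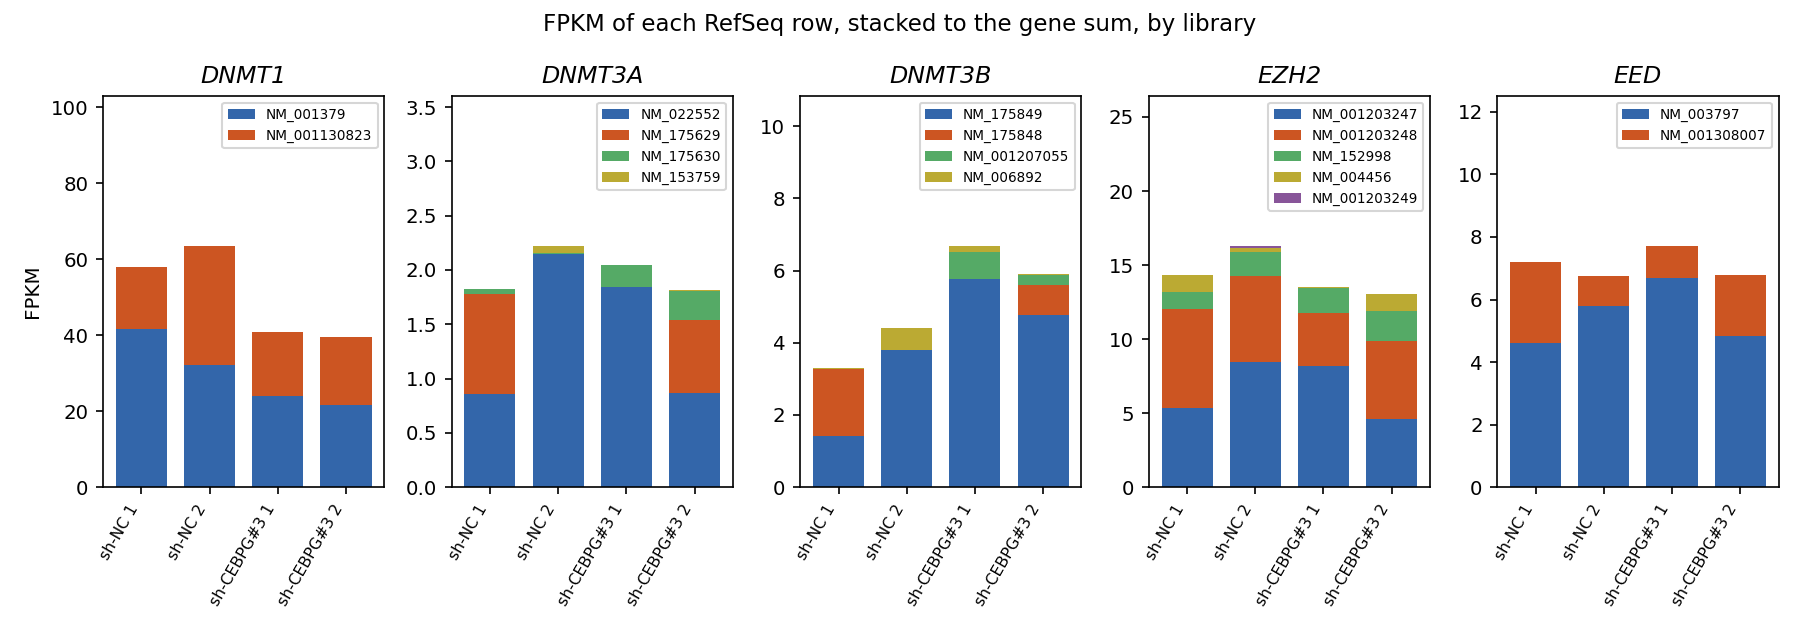
FPKM of each RefSeq row of the 5 members with several rows at higher levels, stacked to the gene sum, for sh-NC 1 and 2 and sh-CEBPG#3 1 and 2. The summed bars of DNMT1 are lower and those of DNMT3B higher in both knockdown libraries, while the split into rows changes between libraries of the same group.

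In every library but sh-NC 1, DNMT3B was carried mostly by NM_175849. In sh-NC 1, NM_175848 held the larger share, at 56.2%. NM_175849 is the DNMT3B3 form, which lacks part of the catalytic region and has no methyltransferase activity of its own. The NM_175849 row had 1.42 and 3.79 FPKM in sh-NC cells and 5.77 and 4.78 FPKM in sh-CEBPG#3 cells. Its share of the DNMT3B sum was 42.9% and 85.7% in control and 86.3% and 81.0% in knockdown libraries. NM_175848 had 1.86 and 0.840 FPKM in sh-NC 1 and sh-CEBPG#3 2 and is listed at 0 in the other two libraries. NM_006892, the full-length form, did not exceed 0.632 FPKM in any library. NM_001207055 is listed at 0 in both sh-NC libraries and had 0.730 and 0.269 FPKM in sh-CEBPG#3 cells.

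DNMT3A showed the same kind of split between NM_022552 and NM_175629, which encode the same protein. NM_022552 had 0.860 and 2.14 FPKM in control and 1.84 and 0.866 FPKM in knockdown libraries, and NM_175629 had 0.920 FPKM in sh-NC 1 and 0.671 FPKM in sh-CEBPG#3 2 and is listed at 0 in the others. The short row NM_175630, with no catalytic domain, had 0.0447 and 0.0151 FPKM against 0.210 and 0.270 FPKM, which is higher in both knockdown libraries and under the filter. NM_153759, the DNMT3A2 form, reached at most 0.0656 FPKM. TET2 was carried to at least 97.4% by NM_001127208, the long form with the catalytic domain, in every library.

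EZH2 was spread over 5 rows. NM_001203247 had 5.33 and 8.42 FPKM in control and 8.21 and 4.58 FPKM in knockdown libraries, and NM_001203248 had 6.68 and 5.85 against 3.52 and 5.30 FPKM. The second of these was lower in both knockdown libraries (log2 fold change -0.44, adjusted p = 0.247 from limma). NM_152998 was higher in both, at 1.73 and 1.99 FPKM against 1.14 and 1.61 FPKM (log2 fold change 0.27, adjusted p = 0.417 from limma). NM_004456 differed 45.9-fold between the sh-CEBPG#3 libraries, whereas the EZH2 sum differed 1.04-fold there. EED was split in a like way, with NM_003797 at 4.62 and 5.79 against 6.70 and 4.85 FPKM and NM_001308007 at 2.58 and 0.972 against 1.03 and 1.95 FPKM. In DNMT3A, DNMT3B, EZH2 and EED alike, one row (NM_175629, NM_175848, NM_004456 and NM_001308007) was higher in sh-NC 1 and sh-CEBPG#3 2 than in the other two libraries, which crosses the groups. The comparison of the groups therefore rests on the sums, and no single form passed the adjusted threshold.

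Promoter windows of all 10 members were found in RefSeq (GRCh38.p14), 20 windows of 300 bases that run from 250 bases before to 50 bases after a start site. The only window of DNMT3B lies 17467 bases inside the gene. DNMT1, EZH2 and UHRF1, the partner of DNMT1, each had an exact match to an E2F-type octamer in a window, and these stretches are shown, 5′ to 3′ on the strand of the gene with the octamer in capitals, as they set the member that fell beside the member that did not pass and the partner that fell most.
DNMT1, chr19:10194937-10194966, minus strand: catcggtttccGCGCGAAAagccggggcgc
EZH2, chr7:148884272-148884301, minus strand: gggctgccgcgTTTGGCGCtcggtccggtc
UHRF1, chr19:4909973-4910002, plus strand: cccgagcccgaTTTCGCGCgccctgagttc
The octamers searched were TTTCGCGC and TTTGGCGC on both strands, and the match in DNMT1 is the reverse complement of TTTCGCGC. It begins 2 bases before the start site of DNMT1, 1 base after that of EZH2 and 160 bases before 1 of the start sites of UHRF1. Such an octamer was held by 2 of the 20 member windows and by 1.15% of all 35116 windows. Both octamers contain CpG, and the windows with a match were rich in it. They held 30 CpG sites in DNMT1, 46 in EZH2 and 40 in UHRF1, where the median of all windows was 14. The share among windows of like CpG content was not tested. The C/EBP palindrome TTGCGCAA and the CEBP-ATF element TGATGCAA were in no member window, and in 0.151% and 0.866% of all windows. The looser C/EBP form TTGCNNAA was in 1 window of TET1 and in 10.5% of all windows. That TET1 window, from 68600018 to 68600317, lies inside the gene, which begins at 68560337. The CCAAT box, searched as CCAAT on both strands, was in 7 of the 20 member windows, from 6 members, and in 34.6% of all windows. A match is a description of the letters only.

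The partners of the DNMT enzymes were led by UHRF1, which brings DNMT1 to replicated DNA. UHRF1 had 47.6 and 51.7 FPKM in sh-NC cells and 18.6 and 18.0 FPKM in sh-CEBPG#3 cells, a log2 fold change of -1.39 (standard error 0.08, adjusted p = 9.59e-07 from limma). Of 18 genes on this list 16 were tested, of which 7 were lower and 1 was higher, with a median log2 fold change of -0.26. Of all genes tested, 42.2% were called, 23.8% as lower and 18.5% as higher. HELLS, a remodeler that DNA methylation of repeats needs, fell with a log2 fold change of -0.84, and UHRF2, the paralog of UHRF1, with -0.33. ZBTB4, a reader of methylated DNA, rose with 0.43. The adjusted p-values of these 3 genes were at most 0.0105 in limma. PCNA (-0.61, adjusted p = 0.000243 from limma) is among the 7 lower genes and also stands on the list of S phase and mitosis genes below.

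Of 17 genes around the TET enzymes 16 were tested, of which 3 were lower and 4 higher, with a median log2 fold change of 0.03. Among all genes tested, 42.2% were called in either direction. IDH1, which makes 2-oxoglutarate in the cytosol, had 41.6 and 46.6 FPKM in control and 110 and 102 FPKM in knockdown libraries (log2 fold change 1.25, adjusted p = 2.43e-06 from limma). Its mitochondrial counterpart IDH2 had 74.2 and 77.0 against 71.3 and 71.6 FPKM, with a log2 fold change of -0.08 (95% interval -0.23 to 0.07). IDH3A, on the same list, was lower, at 13.0 and 13.9 against 10.5 and 9.76 FPKM (log2 fold change -0.38, adjusted p = 0.00609 from limma). WT1, which recruits TET2 to its targets, fell from 17.7 and 19.6 to 14.5 and 13.7 FPKM (log2 fold change -0.38, adjusted p = 0.00549 from limma). TDG, the glycosylase that removes the oxidized bases, had a log2 fold change of 0.09 and did not pass (95% interval -0.09 to 0.26). CXXC5 rose with 0.44 and XRCC1, a scaffold of base excision repair, fell with -0.41 (adjusted p = 0.00212 and 0.00919 from limma).

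Among the other subunits and partners of PRC2, 9 of 10 were tested, with a median log2 fold change of -0.18. Of these, 4 were lower and none was higher by the adjusted p of limma, where 23.8% of all genes were lower. An unadjusted p under 0.05, either way, was reached by 5 of them and by 50.6% of all genes. EPOP, which links PRC2 to Elongin, had 3.94 and 3.97 FPKM in control and 1.25 and 1.22 FPKM in knockdown libraries, a log2 fold change of -1.15 (adjusted p = 2.64e-05 from limma). The histone-binding subunits RBBP4 and RBBP7, which other chromatin complexes also use and which are close paralogs, fell with -0.40 and -0.31, and AEBP2 with -0.35. The targeting subunits JARID2 (0.13, 95% interval -0.04 to 0.29), MTF2 (0.19, -0.02 to 0.41) and PHF19 (0.03, -0.16 to 0.22) did not pass. The H3K27 demethylases KDM6A (log2 fold change 0.11, 95% interval -0.11 to 0.34) and KDM6B (-0.15, -0.36 to 0.06) did not pass either.

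**Figure D4:**
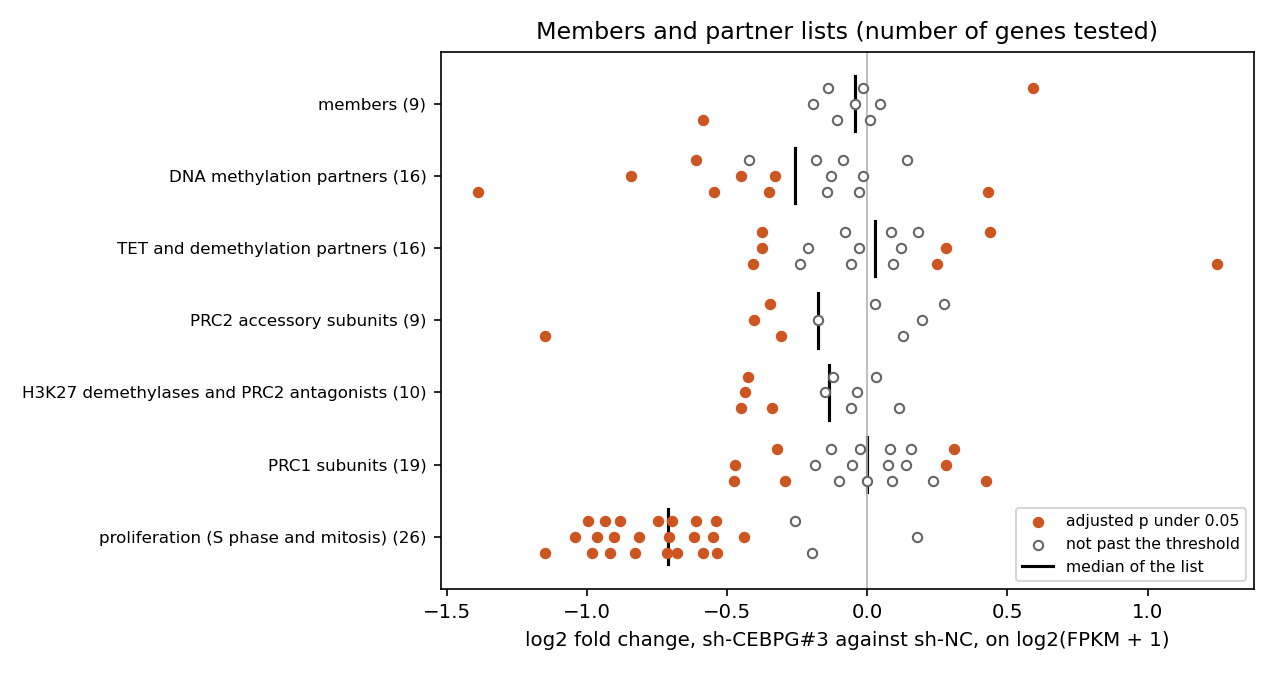
Log2 fold change of every tested gene of the member set and of 6 lists, sh-CEBPG#3 against sh-NC on the log2(FPKM + 1) scale, with filled points for an adjusted p under 0.05 in limma and a line at the median. All but 1 gene of the proliferation list lie left of 0, with a median of -0.71, and most of the 9 members lie close to 0.

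As DNMT1, UHRF1 and EZH2 are known to be higher in dividing cells, a list of 26 genes of S phase and mitosis was set beside them. Of these, 23 were lower and none was higher by the adjusted p of limma (all 26 had an unadjusted p under 0.05, either way), where 23.8% of all genes were lower and 50.6% had such an unadjusted p. The list had a median log2 fold change of -0.71 and a range from -1.15 for MCM6 to 0.18. MKI67, the proliferation marker, had 18.7 and 19.7 FPKM in control and 9.69 and 9.00 FPKM in knockdown libraries. Of the 26 genes, 19 had a lower log2 fold change than DNMT1 at -0.58, and 25 had a lower one than EZH2 at -0.19. UHRF1, at -1.39, lay below every gene of the list. The ratio of DNMT1 to EZH2, added after the values were seen, was 4.05 and 3.90 in sh-NC cells and 3.02 and 3.03 in sh-CEBPG#3 cells, with no overlap and p = 0.333 in the exact permutation test. The part of proliferation in the falls of DNMT1 and UHRF1 was not tested.

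Most genes that these enzymes are known to keep silent had no value in the table or lay under the filter. Of 20 germline genes silenced by DNA methylation, 5 were listed with a value and 1 was tested. This was PRAME, at 0.645 and 0.590 FPKM in control and 0.975 and 0.835 FPKM in knockdown libraries (log2 fold change 0.24, 95% interval -0.06 to 0.54). Of 22 developmental genes that PRC2 binds in many cell types, 6 were listed with a value and 3 were tested. FOXA1 fell from 3.67 and 4.40 to 1.88 and 1.30 FPKM (log2 fold change -0.96, adjusted p = 0.000364 from limma), WT1 fell as given above, and OLIG2 had 5.23 and 6.27 against 7.38 and 6.57 FPKM and did not pass (adjusted p = 0.0922 from limma).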

How the data were processed

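RNA-seq of MV4-11 cells was analysed for 2 sh-NC and 2 sh-CEBPG#3 libraries. Per the submitters' processing notes and the paper's methods, reads passing the authors' quality filter were aligned to hg38 by HISAT2 2.0.5, and the authors deposited FPKM values per RefSeq row; the program that computed the FPKM and the release of the annotation are not given in the sources used here. The kit is not stated to keep strand. The table holds no counts, so no count test was run. Of 28780 rows, 199 had no value.

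FPKM values were summed per symbol (164 rows without a symbol stand alone). Genes whose mean over all 4 libraries reached 0.5 FPKM entered limma 3.58.1 (R 4.3.3), with a linear model per gene and trended empirical Bayes moderation on log2(FPKM + 1), no block and Benjamini-Hochberg adjustment over all 12142 genes. This scale understates changes of low genes. Rows were tested in the same way. Ratios between members were tested with an exact permutation test over libraries. Motifs and exon overlaps were read with Python 3.11.15 from RefSeq promoter windows (GRCh38.p14) and GENCODE v44.

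The members, lists and tests were chosen with earlier results of these data known. All members were named, with up to 4 called genes of each partner list, from those with the largest and the smallest log2 fold changes, and 14 partners named whatever their values. PCNA, IDH3A and RNF2 were named in addition, after the values were seen. UTY was left out of its list. Alternatives were the pseudocounts 0.1 and 0.01, testing every gene, a filter at 1 FPKM, quantile normalization, scaling to equal totals or medians, limma without a trend, the most abundant row of each gene, the replicate block and each library left out. No genes with a like pattern were searched for, as 4 libraries give no basis for it.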

Additional observations from a re-analysis of the deposited data

How the results depend on the processing

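Over 11 settings other than leaving out a library, DNMT1 stayed between -0.66 and -0.55 and DNMT3B between 0.57 and 0.88, and each passed in 10. With the most abundant row in place of the sum, DNMT1 (-0.66, adjusted p = 0.0712) and DNMT3B (0.88, adjusted p = 0.217) did not pass in limma, where 1285 genes were called against 5128, so that 0 members were lower and 0 higher. The partner lists then had 23 lower and 2 higher genes against 45 and 8. EZH2 passed with equal totals (-0.22), which gave 2 lower members in place of 1, as did no filter, through TET1. TET2 changed sign with quantile normalization (0.017) and median scaling (0.014), and EZH1 with equal totals (-0.012), none past the threshold. The partner lists had 15 higher genes with quantile normalization and 17 with median scaling, against 8. The share of called genes that were higher was 43.8%, and 49.6% with median scaling. Past the threshold on p and fold, 827 and 882 genes stood with pseudocounts of 0.1 and 0.01, and 1510 with no filter and 0.01, against 414, with 1 member, TET1, in the last. With the most abundant row, the log2 ratio moved to -0.14 from -0.22 for EZH2 to EZH1, to -1.29 from -0.78 for DNMT3A to DNMT3B, to -0.016 from -0.09 for EZH2 to SUZ12, to -0.56 from -0.39 for DNMT1 to EZH2 and to -1.87 from -1.31 for DNMT1 to DNMT3B. The cause was not tested.

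With each library left out, where the lone library is assumed to vary like the other group, the log2 fold change of DNMT1 lay between -0.65 and -0.52, with ranges of 0.43 to 0.76 for DNMT3B, -0.14 to 0.052 for DNMT3A, -0.089 to 0.062 for TET2, -0.081 to 0.10 for EZH1, -0.28 to -0.10 for EZH2, -0.164 to -0.0488 for SUZ12, -0.191 to -0.0887 for TET3 and -0.035 to 0.13 for EED. The log2 difference of the ratios ranged from -0.40 to -0.12 for EZH2 to EED, -0.159 to -0.0281 for EZH2 to SUZ12 and 0.0167 to 0.270 for TET2 to TET3, with the extremes without sh-NC replicate 1 or 2, and the other 4 ratios moved by less than 1.5 times. The number of lower members was 1 to 2 and that of higher partner genes 5 to 8, with 5 without sh-CEBPG#3 replicate 1.

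The replicate numbers come from the titles, which do not tie them to a batch, and the deviations of libraries with the same number correlated at 0.061 over the genes. With the replicate block, DNMT1 (-0.58) and DNMT3B (0.59) passed and no other member did, and 4761 genes were called. Without counts, the precision of low values such as those of TET1 is unknown.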

Other observations

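Of 20 subunits of PRC1, the Polycomb complex that ubiquitinates histone H2A, 19 were tested, with a median log2 fold change of 0.00. In limma 4 of these were lower and 3 higher, where 42.2% of all genes were called. BMI1, which sustains self-renewal of blood stem cells, had 71.6 and 74.7 FPKM in sh-NC cells and 53.6 and 51.4 FPKM in sh-CEBPG#3 cells (log2 fold change -0.47, adjusted p = 0.000569 from limma). RING1, a catalytic subunit, fell from 3.63 and 4.14 to 2.53 and 2.49 FPKM (-0.48), while CBX6 (0.42) and KDM2B (0.31), which brings PRC1 to CpG islands, rose. These 3 had adjusted p-values of at most 0.0148 in limma. RNF2, the other catalytic subunit listed, did not pass, at 7.64 and 7.35 FPKM in control and 7.56 and 7.42 FPKM in knockdown libraries.

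A list of 10 genes held the H3K27 demethylases KDM6A and KDM6B with BAP1, ASXL1, ASXL2, KMT2A, KMT2C, KMT2D, CREBBP and EP300. Of these, 4 were lower, where 23.8% of all genes were, and none was higher by the adjusted p of limma. An unadjusted p under 0.05, either way, was reached by 4 of them and by 50.6% of all genes. The 4 lower genes were ASXL2 (log2 fold change -0.45), KMT2A (-0.43), ASXL1 (-0.42) and KMT2D (-0.34), with adjusted p-values of at most 0.0176 in limma. KMT2A had 2.86 and 3.19 FPKM in sh-NC cells and 2.11 and 1.84 FPKM in sh-CEBPG#3 cells, and reads from the intact gene and from the fusion of these cells cannot be told apart in this sum.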
